A study of Mus musculus with 4 samples.

Results

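Type 2 lymphocytes carrying the interleukin (IL)-33 receptor were examined among CD45+ leukocytes of mouse KPC pancreatic tumours. A cell was a member when it held at least 1 unique molecular identifier (UMI, a tag that counts single RNA molecules) of Il1rl1, which encodes the IL-33 receptor ST2, and at least 1 of Gata3, the transcription factor of type 2 lymphocytes. It also had to hold no UMI of Foxp3 (regulatory T cells), Cd8a or Cd8b1 (CD8 T cells), Csf1r (macrophages and monocytes) and Cd79a (B cells). Of 23011 cells with 300 to 5000 genes and at most 6% mitochondrial UMIs, 173 were members: 161 with a UMI of Cd3e, Cd3d or Cd3g (CD3+ cells below) and 12 without one (CD3- cells). The cells came from tumours of the KPC line, sorted by flow cytometry for CD45 and sequenced from the 5' end of the transcripts. The 4 groups were untreated tumours, tumours given a STING agonist, tumours given an agonistic antibody to the lymphotoxin-β receptor (LTβR agonist), and tumours given both agonists (combination). The study's methods describe subcutaneous tumours of mice, pooled within each group before sorting. There was 1 library per group, so the tumours of a group could not be told apart and no test between treatments was made.

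ST2 is the receptor for IL-33, an alarmin released by damaged epithelial and stromal cells. T helper 2 (Th2) cells and group 2 innate lymphoid cells (ILC2) both carry it, both depend on GATA3, and both release IL-5, which recruits eosinophils, and IL-13, which acts on epithelium, fibroblasts and macrophages. Th2 cells have a T cell receptor and also make IL-4, whereas ILC2 lack the receptor and CD3. Amphiregulin (Areg), a growth factor of the EGF family, is made by ILC2, by ST2+ regulatory T cells and by many myeloid cells. STING is the adaptor that links cytosolic DNA to type I interferon, and LTβR is the receptor through which lymphotoxin organises lymphoid tissue.

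The genes of IL-4, IL-13 and IL-5 lie in 1 stretch of chromosome 11 (GRCm38): Il4 at 53602982-53618669 and Il13 at 53631324-53634702, both on the minus strand, and Il5 at 53720794-53725106 on the plus strand. GATA factors bind a short core, and the 250 bases before each gene's start are shown because these 3 genes mark the cells below and one of the gate's own genes encodes such a factor. The sequences are from RefSeq (GRCm38.p6), 5' to 3' on the gene's strand, with the core GATA, preceded by A or T and followed by A or G, in capitals on either strand. For Il4 the window before the start nearest the annotated gene end is shown.

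Il4 (chr11:53618666-53618915, minus strand): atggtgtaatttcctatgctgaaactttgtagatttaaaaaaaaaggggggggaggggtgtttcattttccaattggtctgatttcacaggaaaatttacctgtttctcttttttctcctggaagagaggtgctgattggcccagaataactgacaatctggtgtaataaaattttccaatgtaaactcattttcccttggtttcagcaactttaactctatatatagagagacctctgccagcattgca
Il13 (chr11:53634703-53634952, minus strand): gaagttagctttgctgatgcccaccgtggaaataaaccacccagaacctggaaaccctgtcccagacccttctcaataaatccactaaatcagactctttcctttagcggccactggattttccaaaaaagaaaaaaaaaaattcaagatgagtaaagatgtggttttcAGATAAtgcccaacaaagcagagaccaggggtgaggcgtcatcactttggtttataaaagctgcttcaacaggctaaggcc
Il5 (chr11:53720544-53720793, plus strand): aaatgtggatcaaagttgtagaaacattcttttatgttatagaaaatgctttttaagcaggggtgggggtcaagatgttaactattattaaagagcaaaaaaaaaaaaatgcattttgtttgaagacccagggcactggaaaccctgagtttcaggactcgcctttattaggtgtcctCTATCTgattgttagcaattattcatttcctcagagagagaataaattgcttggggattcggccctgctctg

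The Il13 window held AGATAA, with its first base 81 bases before the start, and the Il5 window held CTATCT 72 bases before the start. The Il4 window held none, and a window before a second Il4 start (chr11:53617339-53617588) held TGATAG 80 bases before it. At least 1 such core was found in 26.5% of 32851 windows of 250 bases before gene starts, so a match describes the letters and nothing else.

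The libraries held, after the limits, 6783 cells for untreated, 3748 for the STING agonist, 7147 for the LTβR agonist and 5333 for the combination, with medians of 7094, 6748, 5750 and 5877 UMIs per cell. CD3+ members were shallower in the first 3 libraries, with medians of 4402, 3836.5 and 4506.5 UMIs, and 5880.5 in the combination. A barcode sequence shared with another library occurred in 492 of the 23011 cells and in 7 of the 173 members. In 1 instance both cells of a shared barcode were members (LTβR agonist and combination): 658 genes were detected in both cells, of 1804 and 1642, and V genes were called in the first cell only.

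CD3+ members formed a larger share of the leukocytes where the LTβR agonist was given, and most so with both agonists. They numbered 17 of 6783 cells in untreated tumours, which was 0.251% (exact 95% interval 0.146 to 0.401), and 12 of 3748 with the STING agonist, 0.320% (0.166 to 0.559). Under the LTβR agonist they numbered 54 of 7147, 0.756% (0.568 to 0.985), and in the combination 78 of 5333, 1.46% (1.16 to 1.82). The combination therefore stood at 5.84 times untreated (2.89 to 12.5, from the opposite ends of the 2 intervals), 4.57 times the STING agonist (2.07 to 11.01) and 1.94 times the LTβR agonist (1.18 to 3.21). The LTβR agonist stood at 3.01 times untreated (1.42 to 6.74). The ratio of the STING agonist to untreated was 1.28 (0.413 to 3.82), an interval that spans 1. Thinning each cell to 2000 UMIs before the gate, which removes differences in depth between cells, gave a ratio of combination to LTβR agonist of 1.62 (0.861 to 3.06), which spans 1, and leaving out members with genes of other lineages left it at 1.94 (1.05 to 3.62). All intervals cover counting error only and not the spread between tumours.

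**Figure D1:**
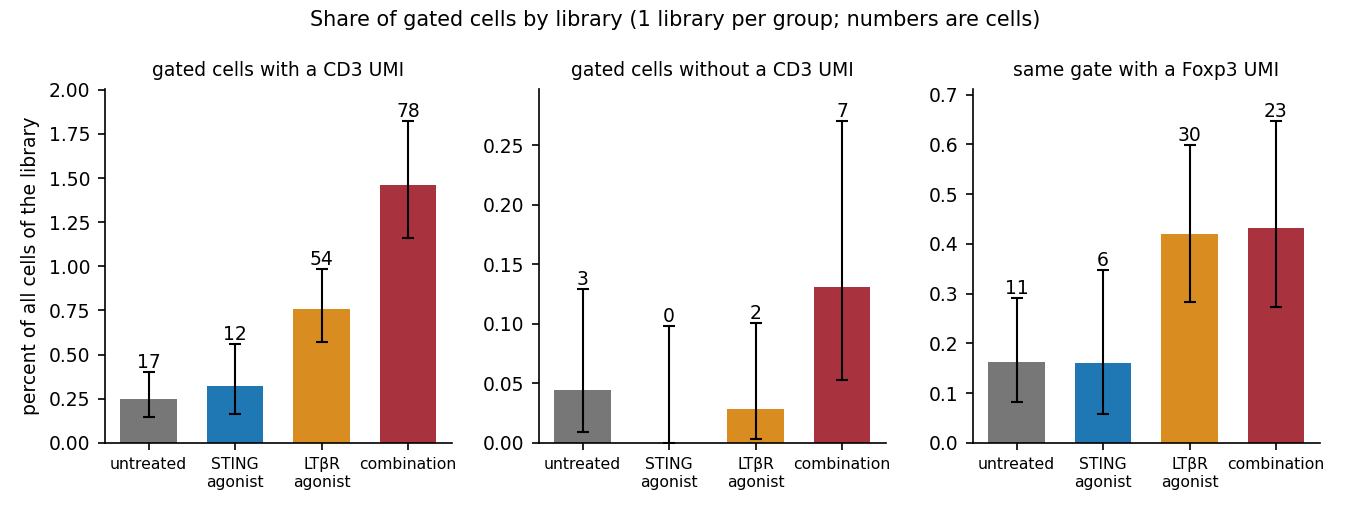
Percent of all cells of a library (linear axis from 0) that were CD3+ members, CD3- members and Foxp3+ cells of the same gate, with exact 95% binomial intervals and the number of cells above each bar. CD3+ members rose from 17 cells (0.251%) in untreated tumours to 78 (1.46%) in the combination; the CD3- panel rests on 0 to 7 cells.

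The order of the 4 libraries was the same among CD3+ cells of all kinds, of which the members were 0.757%, 0.855%, 2.17% and 3.51%, with a ratio of combination to LTβR agonist of 1.61 (0.985 to 2.66). Among Foxp3-negative cells with CD3 and Cd4 UMIs, members were 19.3% (15.02 to 24.3) in the combination, 8.82% (6.15 to 12.2) under the LTβR agonist, 5.63% (3.03 to 9.43) without treatment and 1.98% (0.647 to 4.57) under the STING agonist. Other CD4 helper cells, defined by CD3 and Cd4 UMIs without Foxp3 and without both gate genes, did not follow this order. They were 3.21%, 6.59%, 4.77% and 4.54% of all cells, highest with the STING agonist. Foxp3+ cells of the same Il1rl1 and Gata3 gate, which include ST2+ regulatory T cells, were 0.162%, 0.160%, 0.420% and 0.431%, level between LTβR agonist and combination (ratio 1.03, 0.457 to 2.28).

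The gate genes chose the members, so their levels are given as a description. Il1rl1 was at 46, 22, 198 and 519 UMIs, medians of 1, 1.5, 2.5 and 5 UMIs per cell in the untreated and STING agonist, then the LTβR agonist and combination libraries. Gata3 had medians of 2, 1, 2 and 3.5 UMIs per cell. Of the 161 CD3+ members, 20 stood at exactly 1 UMI of both genes, and 84 had at least 2 of both. A UMI of Il4, Il5 or Il13, none of which the gate used, was found in 10% of the first set and 67.9% (56.8 to 77.6) of the second. Just outside the gate, it was found in 17.7% of 79 cells with Il1rl1 but no Gata3, in 4.68% of 556 cells with Gata3 but no Il1rl1, and in 2.86% of the 70 Foxp3+ cells. For comparison, 0.344% of 9897 Csf1r+ myeloid cells (median 9504 UMIs) and 0.142% of 705 B cells (median 4662 UMIs) held such a UMI, against 48.4% (40.5 to 56.4) of the 161 CD3+ members at a median of 5102 UMIs. The 18 cells left out for Cd8a or Cd8b1 held one in 27.8%. Of the 12 left out for Csf1r, 50% held one, at a median of 13204.5 UMIs. CD3+ members with at least 2 UMIs of both gate genes were 5 of 17 in untreated and 3 of 12 with the STING agonist. They were 23 of 54 with the LTβR agonist and 53 of 78 in the combination. Levels per member given below therefore compare libraries whose members differ in this respect, and its part in them was not tested.

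With respect to lineage, the CD3+ members had the marks of αβ T cells. At least 2 of the 3 CD3 genes were detected in 152 of 161, Trac, Trbc1 or Trbc2 in 147, and Cd4 in 109. Cd4 was found in 13 of 17, 5 of 12, 33 of 54 and 58 of 78 cells. Trdc, the constant gene of the γδ receptor, was found in 3 cells and Zbtb16, the factor of innate-like T cells, in 1. Trav11, the V gene of invariant natural killer T cells, led in none. Of the 9 NK genes listed, Ncr1 was at 0 and the other 8 were detected, at 228 UMIs in 20 of the 161 cells. Most were of Gzma (128 UMIs in 8 cells) and Gzmb (60 UMIs in 13 cells), granzymes that activated T cells also make. Of the 5 eosinophil genes, Siglecf, Epx, Prg2 and Ear2 were at 0 in all 4 libraries, and Ccr3 was at 4 UMIs in 3 combination cells. In 1 untreated cell, 52 UMIs of Il17a stood beside 20 of Trdv4. The label Th2-like thus rests on Il4, Il5 and Il13 in the CD3+ cells, while Ptgdr2 and Il9, further genes tied to type 2 cells, were at 0.

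Il5, Il13 and Il4 were concentrated in these few cells. The 161 CD3+ members, 0.700% of all cells, held 253 of the 300 Il5 UMIs of the passing cells (84.3%, 79.7 to 88.3), 1042 of 1360 Il13 UMIs (76.6%) and 136 of 305 Il4 UMIs (44.6%). In untreated tumours they held a smaller part: 2 of 12 Il5 UMIs, 10 of 49 Il13 UMIs and 2 of 42 Il4 UMIs. In the combination they held 184 of 216, 318 of 458 and 93 of 123. Areg was different. CD3+ members held 1090 of 15372 Areg UMIs (7.09%), Foxp3+ cells of the same gate 11.6% and Csf1r+ myeloid cells 23.8%. The members' part of Areg was 0.837%, 0.419%, 5.08% and 16.3% across the 4 libraries, highest in the combination.

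Il5 was found in 2 of 17 untreated cells (2 UMIs), 2 of 12 under the STING agonist (9 UMIs), 12 of 54 under the LTβR agonist (58 UMIs) and 33 of 78 in the combination (184 UMIs). Summed over the members of a library, Il5 was at 24.1, 171, 179 and 297 CPM, the usual count of UMIs scaled to the same total for each set of cells. With all cells counted, the untreated value had an exact Poisson interval of 2.91 to 86.9, below those of the LTβR agonist and the combination. A single cell held 7 of the 9 UMIs with the STING agonist, 29 of the 58 with the LTβR agonist and 55 of the 184 in the combination. Without the top cell of each, Il5 stood at 92.9 CPM with the LTβR agonist and 209 CPM in the combination. The log2 ratio of the combination to untreated, with 10 CPM added to each side, was 3.17 (1.45 to 4.77), and to the LTβR agonist 0.70 (0.14 to 1.27).

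Il13 was found in 3, 2, 14 and 31 cells, at 10, 11, 703 and 318 UMIs. With the LTβR agonist 552 of the 703 UMIs were in 1 cell. The CPM of Il13 were 120, 209, 2171 and 513, and 483 with the LTβR agonist against 388 in the combination when the top cell of each was left out. The log2 ratio to untreated was 4.07 (3.13 to 5.12) with the LTβR agonist and 2.01 (1.02 to 3.11) in the combination. Most of the gap between the LTβR agonist and the combination thus lay in 1 cell.

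Il4, the cytokine that defines Th2 cells, was found in 1, 3, 15 and 22 cells, at 24.1, 56.9, 117 and 150 CPM. Its log2 ratio to untreated was 1.90 (-0.06 to 3.73) with the LTβR agonist and 2.23 (0.44 to 3.91) in the combination, both against 2 UMIs. Areg was found in 7, 2, 23 and 48 cells, at 313, 209, 723 and 1322 CPM, and the combination exceeded untreated by 2.04 (1.41 to 2.73) and the LTβR agonist by 0.86 (0.58 to 1.15) on the log2 scale. Its top cell in the combination held 118 of 819 UMIs.

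**Figure D2:**
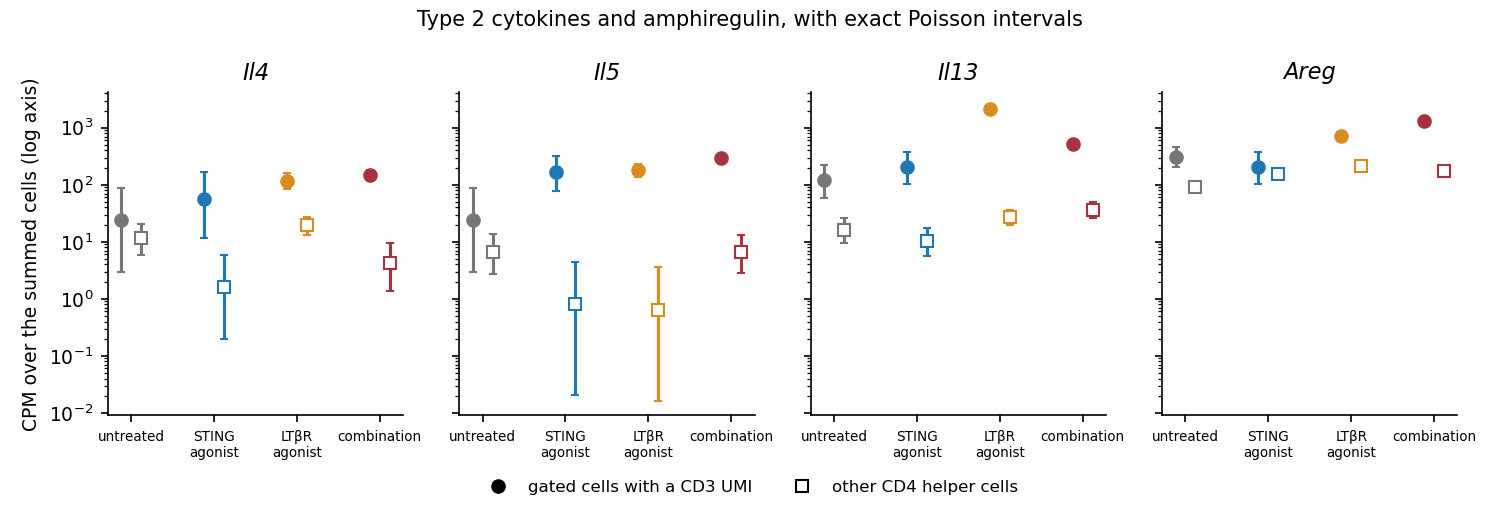
CPM of Il4, Il5, Il13 and Areg (log axis) over the summed cells of each library, for CD3+ members (filled circles) and other CD4 helper cells (open squares), with exact 95% Poisson intervals, some smaller than the symbol. Circles lie above squares in each library for each of the 4 genes; the Il13 value of 2171 CPM with the LTβR agonist includes 1 cell of 552 UMIs.

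Cells with several of the cytokines were found mainly in the combination. At least 1 of Il4, Il5 and Il13 was detected in 4 of 17, 4 of 12, 25 of 54 and 45 of 78 CD3+ members, and all 3 in 0, 1, 4 and 12. Il5 and Il13 were found together in 2, 1, 7 and 23 cells. Depth moved with this count in the combination, where members with a cytokine UMI had a median of 7814 UMIs and those without 3654. With the LTβR agonist the medians were 4249 and 4764, in the opposite order. With each cell thinned to 2000 UMIs, Il5 was found in 1 of 16, 1 of 12, 7 of 54 and 17 of 76 cells, and Il13 in 2, 2, 11 and 20. The shares were then 20.4% (10.6 to 33.5) with the LTβR agonist and 26.3% (16.9 to 37.7) in the combination for Il13, whose intervals overlap.

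**Figure D3:**
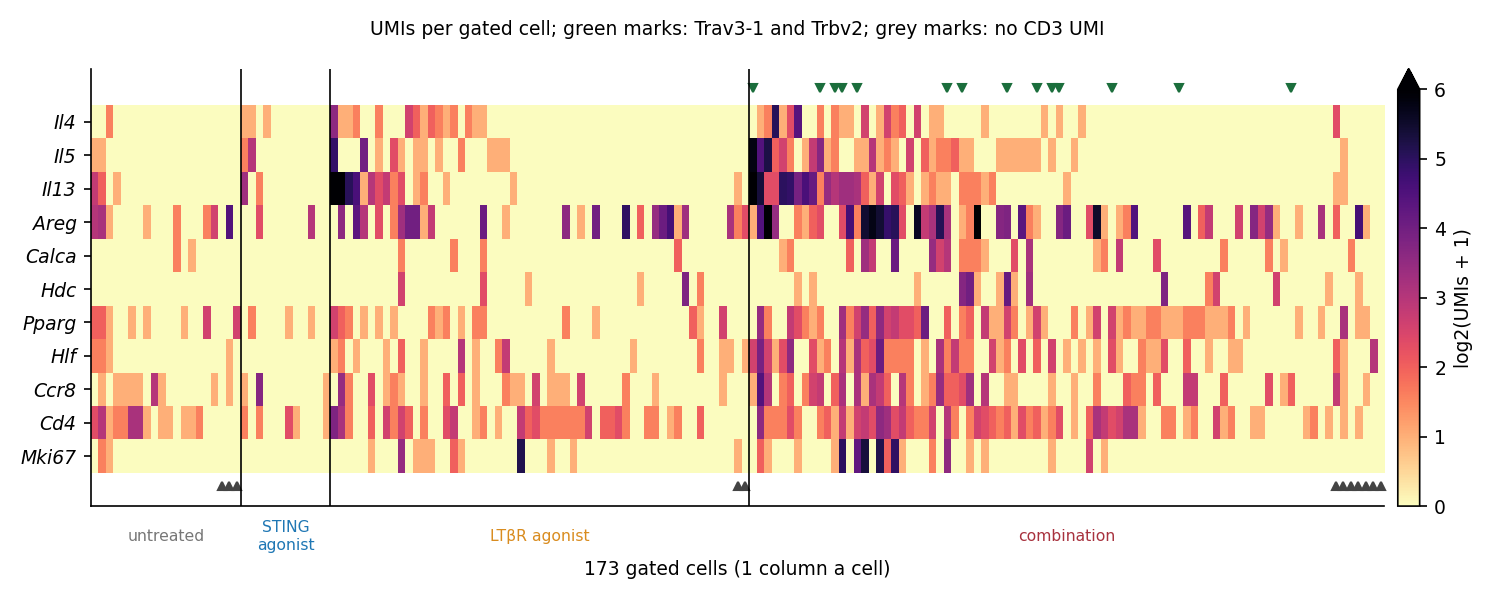
Each column is 1 of the 173 members and each row a gene, coloured by log2(UMIs + 1), with libraries side by side and cells ordered by their summed Il4, Il5 and Il13 UMIs. Cytokine UMIs reach from the left through 45 of the 78 CD3+ cells of the combination and 25 of the 54 of the LTβR agonist; green marks show the 14 cells with Trav3-1 and Trbv2, and grey marks the 12 CD3- cells.

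Other effectors of the type 2 list moved unevenly. Calca, which encodes the neuropeptide CGRP, was found in 2 of 17, 0 of 12, 4 of 54 and 22 of 78 cells, at 3, 0, 9 and 96 UMIs. Its log2 ratio of the combination to the LTβR agonist was 2.13 (1.11 to 3.13), and its highest cell held 16 UMIs. Penk, which encodes the opioid precursor proenkephalin, stood at 40, 11, 1249 and 22 UMIs, of which 1084 were in 1 cell of the LTβR agonist. Csf2 (GM-CSF) stood at 2, 3, 137 and 21 UMIs, with 90 of the 137 in 1 cell. Il10 stood at 1, 0, 1 and 47 UMIs. Il9 and Il3 were at 0. With the LTβR agonist 5 of the 6 genes of this list with at least 50 UMIs in the 2 libraries were higher than untreated by a log2 ratio of 1 or more, against 5.59% of 1305 genes, and 0 were lower, against 1.84%. In the combination 5 of 7 were higher than untreated, against 7.6% of 2250 genes, and 1, Penk, was lower, against 4.13%. The medians of the list were 2.73 and 2.01. The label of these cells was chosen with such values in view, so the counts describe them and do not test the label. Il5 and Il13, at 2 and 10 UMIs in untreated, reached 50 UMIs through the treated library where they were high. So did Csf2 with the LTβR agonist, and Il4 and Calca in the combination. The counts and medians were thus partly set by this filter. Besides Penk and Csf2, Il13 with the LTβR agonist also lay mostly in 1 cell (552 of 703 UMIs).

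Among the transcription factors, Pparg and Hlf were higher in the combination than with the LTβR agonist. Pparg, a nuclear receptor for fatty acids that Th2 cells and ILC2 are known to use, was found in 7 of 17, 3 of 12, 17 of 54 and 53 of 78 CD3+ members, at 180, 75.8, 108 and 281 CPM. Hlf, a PAR-family bZIP factor, was found in 3, 0, 15 and 44 cells, at 60.1, 0, 95.7 and 253 CPM. The combination exceeded the LTβR agonist by 1.30 (0.64 to 1.98) for Pparg and 1.32 (0.63 to 2.03) for Hlf on the log2 scale, which made 2 of 15 listed factors higher by a log2 ratio of 1, against 1.66% of 2957 genes, and 0 lower, against 2.94%. A UMI of either gene was present in 7, 3, 26 and 64 cells. After thinning to 2000 UMIs, Pparg was found in 31.3%, 16.7%, 16.7% and 36.8% of cells and Hlf in 12.5%, 0%, 20.4% and 38.2%. Rora, which ILC2 need for their development, showed no such order, at 890, 664, 880 and 760 CPM. Bhlhe40 was at 1263, 1119, 1004 and 846 CPM. Of 14 genes of the transcription factor list with enough UMIs, 1 was higher and 2 were lower in the combination than in untreated by a log2 ratio of 1, against 7.6% and 4.13% of 2250 genes.

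Hdc, which encodes the enzyme that makes histamine, was found in 0 of 17, 0 of 12, 6 of 54 and 15 of 78 CD3+ members, at 0, 0, 26 and 85 UMIs. Histamine is best known from mast cells and basophils. Of the 8 other genes listed for those cells, Cpa3, Mcpt8, Fcer1a, Ms4a2, Gata2, Mcpt4 and Tpsb2 were at 0 in the CD3+ members of all 4 libraries, and Cd200r3 was at 3 UMIs in 3 cells of the LTβR agonist. Hdc was not particular to the members: a UMI was found in 18.0% of Csf1r+ myeloid cells (12.9% in the combination to 21.8% in untreated), at 46.6 CPM over all libraries, in 3.24% of other CD4 helper cells, at 11.7 CPM, and in 2.98% of B cells. In the CD3+ members the level over all libraries was 103 CPM, in 13.0% of cells. Of the 21 members with Hdc, 10 (47.6%) held at least 2 of the 26 other genes of other lineages, against 25.7% of the 140 without it. The part of RNA from other cells in the Hdc counts was not tested. Against untreated, with 3 counts as the floor for 0 UMIs, Hdc was at least 3.8-fold higher in the combination. No cell held more than 17 UMIs, and 10 of the 15 combination cells also held Il4, Il5 or Il13.

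Receptor genes moved in both directions. Icos, a costimulatory receptor, was at 830, 322, 281 and 166 CPM, and Il18r1, the IL-18 receptor, at 493, 322, 179 and 64.6 CPM. The combination was below untreated by -2.25 (-2.86 to -1.63) for Icos and -2.75 (-3.60 to -1.89) for Il18r1 on the log2 scale. These were 2 of the 10 receptor genes with enough UMIs, against 4.13% of 2250 genes, and 0 of the 10 were higher, against 7.6%. With the LTβR agonist 3 of 10 were lower than untreated, Icos, Il18r1 and Ramp3, against 1.84% of 1305 genes, and 2 were higher, Il1r2 and Tnfrsf18, against 5.59%. Il7r was highest with the STING agonist, at 1289 CPM, against 650, 571 and 458 in untreated, LTβR agonist and combination. Il2ra, the high-affinity IL-2 receptor chain, was at 638, 171, 494 and 578 CPM. The TSLP receptor Crlf2 was found in 8, 7, 25 and 45 cells, while Il17rb, the receptor for IL-25, was found in 1, 0, 4 and 3. Ltbr itself was at 2 UMIs in 1 cell, so the receptor targeted by the antibody was nearly absent from the members' counts. Ltb, a ligand of that receptor, was at 589, 796, 692 and 307 CPM.

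Interferon-stimulated genes were lowest in the combination. Ifi27l2a was at 2321 CPM in untreated, 2177 under the LTβR agonist, 986 under the STING agonist and 399 in the combination, and was found in 14 of 17, 9 of 12, 50 of 54 and 55 of 78 cells. Other CD4 helper cells spanned a narrower range, at 2525, 1711, 2338 and 1604 CPM for Ifi27l2a. The summed level of the 15 measured genes of the list was 3861, 2446, 3959 and 1035 CPM in CD3+ members. Of the 6 with enough UMIs, 4 were lower in the combination than with the LTβR agonist by a log2 ratio of 1 or more, against 2.94% of 2957 genes, and 0 were higher, against 1.66%. The list's median was -1.43.

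Cell cycle genes had higher summed levels with the LTβR agonist and in the combination. Mki67 was at 3, 0, 55 and 185 UMIs, in 2, 0, 10 and 18 cells, and Stmn1 at 0, 1, 87 and 138 UMIs. Of the 55 Mki67 UMIs with the LTβR agonist 35 were in 1 cell. The list summed to 613, 834, 1596 and 2586 CPM. Against untreated, 6 of its 6 genes with enough UMIs were higher in the combination, against 7.6% of 2250 genes, and 2 of 4 with the LTβR agonist, against 5.59% of 1305. Mki67 and Stmn1 reached enough UMIs through the libraries where they were high, so these counts describe the levels and do not test a rise. A UMI of Mki67 or Top2a was present in 3 of 17, 0 of 12, 15 of 54 and 21 of 78 cells, or 17.6%, 0%, 27.8% and 26.9%, with overlapping intervals. In the combination 19 of those 21 cells also held Il4, Il5 or Il13, against 45 of all 78 members. With the LTβR agonist 9 of 15 did, against 25 of all 54. The combination cell with most Mki67 UMIs (39) held 17037 UMIs in total, against a median of 5880.5 for CD3+ members there. The cells next in order held 35, 31, 30 and 18 of the 185 Mki67 UMIs, at totals of 15662 to 24860 UMIs. Deeper cells show more of both kinds of gene, and the part of depth in this overlap was not tested.

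Across all genes with at least 50 UMIs in the 2 libraries compared, 7 of 363 (1.93%) were higher and 25 (6.89%) lower with the STING agonist than in untreated tumours. Il4, Il5, Il13 and Areg had fewer than 50 UMIs in these 2 libraries, so this count could not include them. Genes with enough UMIs numbered 1305 for the LTβR agonist over untreated and 2250 for the combination over untreated. The shares thus cover unlike sets of genes and cannot be ranked between treatments. The combination was higher than the STING agonist in 253 of 2139 (11.8%) and lower in 129 (6.03%). The genes with the largest ratios often rested on 1 cell. Ccl3 and Ccl4, chemokines of activated lymphocytes, had 97.5% and 99.0% of their untreated UMIs in 1 cell, and Ikzf2 95% of its STING agonist UMIs. S100a4 was spread over 12 of 17 untreated cells at 890 CPM and stood at 75.8 CPM with the STING agonist, a log2 ratio of -3.39 (-5.20 to -1.80). Between the combination and the LTβR agonist the 5 largest upward ratios belonged to Dhx40, Calca, Phlda1, Prxl2a and Lgals7. None of these 5 had more than 20% of its UMIs in 1 cell. Dhx40 was at 395 CPM against 64.8, a log2 ratio of 2.44 (1.71 to 3.19), and was found in 37 of 78 and 11 of 54 cells. The largest downward ratios were those of Penk, Ifitm1, H2-Aa, Il1b and H2-Eb1, with 56.1% to 86.8% of the LTβR agonist UMIs in 1 cell. Cd74, the invariant chain of MHC class II molecules, had 155 of its 246 UMIs there in 1 cell too. At least 2 of 27 genes of other lineages (myeloid, B, mast cell or basophil, and epithelial) were found in 6 of 17, 2 of 12, 18 of 54 and 26 of 78 CD3+ members, and in 19.2% of other CD4 helper cells. Their part in these ratios was not tested beyond leaving those cells out.

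Within each library the CD3+ members were compared with the other CD4 helper cells, with UMIs summed per library and the library as a block (edgeR, 4 libraries, Benjamini-Hochberg adjustment over 7676 genes, of which 7670 were counted once genes that define the sets were left out). This asks which genes set the ST2+GATA3+ cells apart whatever the treatment. In total 81 genes (1.06%) were higher and 91 (1.19%) lower. The median log2 fold change of all genes was -0.02. Dach2, a DACH-family nuclear factor, had the largest rise. It held 67 UMIs in the members and 3 in 1048 helper cells, a log2 fold change of 6.57 ± 0.66 (SE, adjusted p = 1.27e-05). Dach2 was at 24.1, 56.9, 139 and 27.4 CPM in the members and at 0, 1.6, 0 and 0.83 CPM in the helper cells. The members of the untreated and STING agonist libraries held only 83138 and 52745 UMIs of all genes, so their Dach2 values rest on few UMIs.

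Il5, Il13 and Il4 followed, with log2 fold changes of 5.67 ± 0.49, 4.71 ± 0.41 and 3.43 ± 0.45 and adjusted p of 1.72e-06, 1.72e-06 and 0.00028. Il5 averaged 168 ± 112 CPM (SD, n = 4 libraries) in the members and 3.71 ± 3.45 in the helper cells. Areg rose by 1.99 ± 0.28 (adjusted p = 0.000508), so 4 of the 10 tested genes of the type 2 list rose and 0 fell. The label of the members was chosen with Il5, Il13 and Areg in view. Their values, here and against the Foxp3+ cells below, describe the members and do not test the label. Pparg rose by 3.20 ± 0.27 (adjusted p = 1.5e-06), Hlf by 2.97 ± 0.49 and Nfkb1 by 0.82 ± 0.15, making 3 of 18 factors. Hlf was higher in 3 of the 4 libraries and at 0 UMIs in the members of the STING agonist. Pard3, a cell polarity scaffold, Ltb4r1, the receptor for leukotriene B4, and Prxl2a rose by 3.00 ± 0.41, 2.47 ± 0.35 and 2.37 ± 0.38. Among receptors Il2ra and Ramp1, a subunit of the CGRP receptor, rose, and Icos fell, of 16 tested. Icos was lower in 3 of the 4 libraries, and higher in the members of untreated tumours (830 against 664 CPM).

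Genes of the other helper fates were lower or did not pass the test. Cxcr3 and Il12rb2 of the 6 Th1 genes, Ccr6 of 4 Th17 genes and Il21 of 5 follicular helper genes fell. S1pr1, the receptor for egress into lymph, fell by 2.50 ± 0.29 on the log2 scale (adjusted p = 7.61e-05), and Klf2 fell as well, among the genes listed for residency and homing. Ccl5, a chemokine of effector and memory T cells, fell by 2.95 ± 0.37 and Ly6c2 by 3.28 ± 0.56. Serpine2 and Spp1 (osteopontin) fell by 4.25 ± 0.67 and 3.92 ± 0.41. Spp1 is also abundant in macrophages, and genes of other lineages were found in 19.2% of the helper cells. Of 15 interferon-stimulated genes 5 fell, among them Isg15 by 0.97 ± 0.24, and 0 rose. Of 7 cell cycle genes 3 rose (Mki67, Stmn1 and Tubb5), but not in every library. With the STING agonist Mki67 was found in 0 of 12 members and in 24 of 247 helper cells. Stmn1 was at 0 UMIs in the members of untreated tumours. All 15 tested T cell receptor and helper genes stayed short of the threshold. With the LTβR agonist left out the totals were 25 higher and 44 lower, and with the combination left out 30 and 12.

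The same test against the Foxp3+ cells of the gate covered 2177 genes, of which 187 (8.59%) were higher and 167 (7.67%) lower in the Foxp3-negative CD3+ members. These cells share Il1rl1 and Gata3 and differ by Foxp3. Il13 was at 1042 UMIs in the members and 0 in the 70 Foxp3+ cells, at least 146-fold higher with 3 counts over all libraries as the floor. The bound was 69.6-fold without the 1 cell of 552 UMIs and 41.5-fold without the LTβR agonist library. Tnfsf8 (CD30 ligand), Cd40lg (CD40 ligand), Plac8 and Tnfsf11 (RANK ligand) rose by 3.82 ± 0.40, 3.80 ± 0.47, 3.69 ± 0.53 and 2.85 ± 0.49. Pde3b, Acvr2a and Sorl1 rose by 3.77, 3.68 and 3.12. All 8 regulatory T cell markers fell, with a median of -2.41, and so did Areg, at 641 ± 505 CPM against 4838 ± 2541 (log2 fold change -2.68 ± 0.47, adjusted p = 0.00174). Areg was lower in the members of 4 of 4 libraries. Klrg1, often used to mark ILC2, fell by 3.51 ± 0.36, at 12.03, 0, 27.8 and 43.6 CPM in the members and 302, 597, 384 and 369 CPM in the Foxp3+ cells. Frmd5, Lrrc32, Itgb8, Itgae, Pcsk1 and Gzmb were also among the largest falls, with log2 fold changes from -6.03 to -3.68. Gzmb, at 109 against 1107 CPM, is a cytotoxic granule enzyme that activated regulatory T cells also make. Of 9 interferon-stimulated genes 5 fell. Other-lineage genes were found in 55.7% of the Foxp3+ cells against 32.3% of the members, and without such cells 107 genes were higher and 81 lower.

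**Figure D4:**
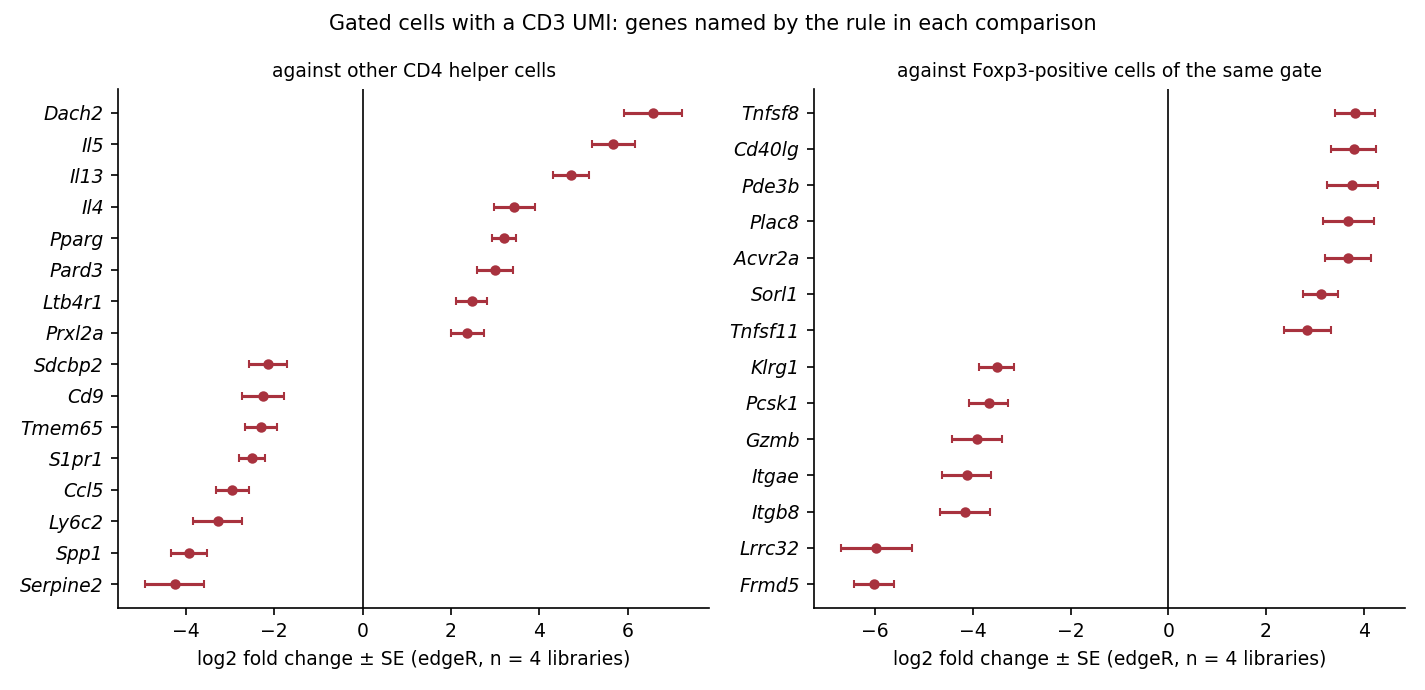
Log2 fold change ± SE from edgeR with the library as a block (n = 4 libraries) for the genes named in the comparison of CD3+ members with other CD4 helper cells (left) and with Foxp3+ cells of the same gate (right); Il13 is left out on the right because the Foxp3+ cells held 0 UMIs. Dach2 and Il5 lead on the left at 6.57 and 5.67, and Frmd5 and Lrrc32 lie lowest on the right at -6.03 and -5.98.

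T cell receptor V genes were counted from the 5' libraries, since each T cell clone uses 1 rearranged β chain. The V gene with most UMIs in a cell was taken as its own where it had no tie. In untreated tumours Trbv13-2 led in 4 of 14 called CD3+ members. It also led under the LTβR agonist, in 13 of 46 (28.3%, 15.99 to 43.5), against 13.0% of other helper cells of that library, and Trbv1 led in 3 of 10 under the STING agonist. In the combination Trbv2 led in 16 of 68 (23.5%, 14.1 to 35.4), against 6 of 201 helper cells (2.99%). Trbv2 led in 1 of 14, 0 of 10 and 1 of 46 members of the other 3 libraries.

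**Figure D5:**
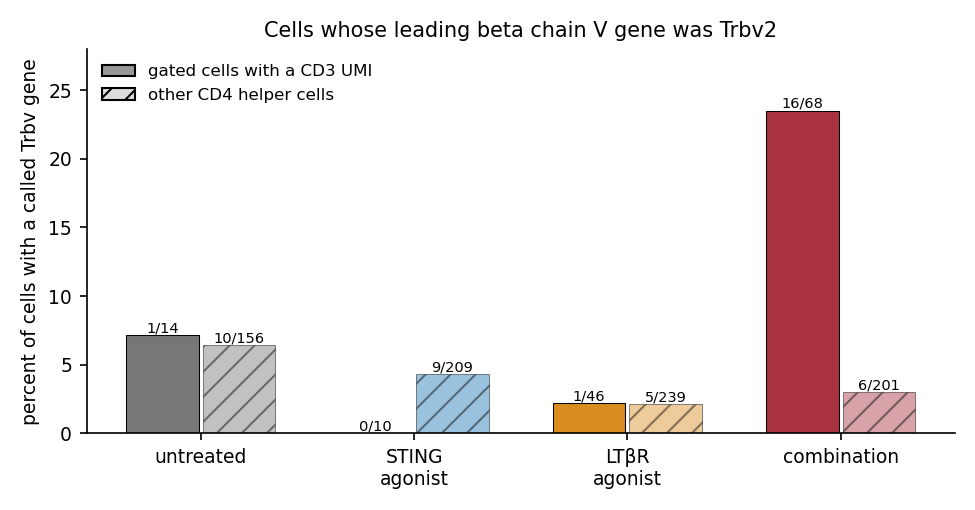
Percent of cells with a called Trbv gene in which it was Trbv2, for CD3+ members (solid) and other CD4 helper cells (hatched) of each library, with counts above the bars (linear axis from 0). The combination members stand at 23.5%, and the other 7 bars lie between 0% and 7.14%.

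These cells largely shared their α chain V gene as well. Trav3-1, singled out after its values were seen, was paired with Trbv2 in 14 of the 33 combination members with both V genes called (42.4%, 25.5 to 60.8). The pair occurred in 0 of 7, 0 of 5 and 0 of 23 such members of the untreated, STING agonist and LTβR agonist libraries. Among all other CD3+ cells of the series it was found in 1 cell, of 929 with both V genes called in the combination, and in 0 of 690, 0 of 690 and 0 of 748 elsewhere. That cell lacked 1 of the 2 gate genes. Trbv2 lies at chr6:41047340-41047995 and Trav3-1 at chr14:52580665-52581213 (GRCm38). The counts give V genes and no junction sequences, near-identical Trav copies can share reads, and the tumours were pooled, so the number of clones and of tumours behind the 14 cells was not determined.

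The 14 cells with this pair were compared with the 64 other CD3+ members of the combination as values of 1 library, without a test. Their depth was alike, with medians of 5933 and 5819.5 UMIs. Il5 was at 583 CPM (459 to 729) against 221 (181 to 267), and Il13 at 828 (679 to 999) against 429 (373 to 491). Both differences rested on 1 cell of 3450 UMIs, which held 55 of the 76 Il5 UMIs and 79 of the 108 Il13 UMIs. Without it the 13 other cells stood at 165 CPM of Il5 (102 to 253) and 228 CPM of Il13 (153 to 328). Both lay below the 64 other members, whose own top cells were kept. With the top cell of each set left out, Il5 was at 165 against 150 CPM (117 to 190). Il13 was then at 228 against 363 CPM (310 to 422). Areg was lower in summed CPM, at 353 (258 to 470) against 1580 (1471 to 1696), but was found in 9 of 14 and 39 of 64 cells. Il4 was at 46.0 against 178 CPM, and was found in 4 of 14 and 18 of 64 cells. Il10 was at 0 against 47 UMIs, the latter in 7 cells. Among the 64 other members, 1 cell held 118 of the 773 Areg UMIs, 1 held 32 of the 87 Il4 UMIs and 1 held 24 of the 47 Il10 UMIs. Levels of Areg, Il4 and Il10 without their top cells were not compared. At least 1 of Il4, Il5 and Il13 was detected in 11 of 14 and 34 of 64. Pparg, at 284 and 280 CPM, and Gata3, at 498 and 509 CPM, were level. Without the 14 cells the combination held 64 CD3+ members, 1.20% (0.925 to 1.53), or 4.79 times untreated (2.31 to 10.5). Its ratio to the LTβR agonist was then 1.59 (0.940 to 2.69), an interval that spans 1.

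The 12 CD3- members numbered 3 of 6783, 0 of 3748, 2 of 7147 and 7 of 5333 cells, or 0.0442%, 0%, 0.0280% and 0.131%. The 0 with the STING agonist allows a share of up to 0.0800% at 3 counts, and its exact upper limit is 0.0984%. Each interval overlapped the others, so no order could be read. Their median was 2923.5 UMIs, below the 5102 of the CD3+ members. Rora was found in 12 of 12, Il2ra in 11, Il7r in 10, Icos and Ramp3 in 8, Bcl11b in 7, Areg in 6 (55 UMIs), and Hlf in 5. Il13 was found in 3 cells with 3 UMIs in total, and Il5 in 1. Kit was found in 2, and Klrg1, Arg1 and Nmur1, which ILC2 can carry, in 0. A UMI of Trac, Trbc1, Trbc2 or a Trav or Trbv segment was present in 7 of the 12, and 5 held none, 3 of them in the combination. In 1 untreated cell Cd74 reached 251 UMIs. The label ILC2-like is therefore not carried by these counts for at least 7 of the cells, and they are called CD3- members.

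Against NK cells of the same libraries (no CD3 UMI, a Ncr1 or Klrb1c UMI) the CD3- members were higher in 21 of 7249 genes (0.29%) and lower in 48 (0.662%), over the 3 libraries that held them. Pard3, Ramp3 and Areg rose by 9.96 ± 1.11, 7.54 ± 0.99 and 6.64 ± 0.96 on the log2 scale, and Plcl1, Hlf, Nav2, Adam19 and Themis by 4.73 to 6.61. Il7r, Il2ra and Bcl11b also rose. The cytotoxic genes Gzma, Nkg7, Gzmc, Xcl1, Klrd1, Prf1, Ctsw and Txk were at 0 UMIs in the 12 cells. With 3 counts as the floor they were at least 64.5-fold (Gzma) to 7.97-fold (Txk) lower. The median of all genes was -1.08 and a column held as few as 5120 UMIs. Thinned to 2000 UMIs, 0 genes passed in either direction. Against the CD3+ members, 0 of 838 genes (0%) were higher in the CD3+ cells and 5 (0.597%), Nedd4l, Ust, Nr4a2, Parp8 and Pard3, were lower, with fold changes from -3.98 to -2.91 on the log2 scale. At an unadjusted p under 0.05, 49 genes were higher and 37 lower, and DESeq2 called 15 and 10.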

How the data were processed

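Single-cell RNA-seq libraries were made by the submitters from live CD45+ cells with the 10x 5' v2 kit and processed by the authors with Cell Ranger 7.1.0 against mm10, per the labels. The deposited matrix holds raw UMI counts of 32285 genes in 24839 barcodes, and barcodes carry the library number. Of these, 23011 with 300 to 5000 genes and at most 6% mitochondrial UMIs were kept, which are also the limits of the study's methods. Libraries held 32529174 to 60770280 UMIs. The gate was applied to raw counts, and no doublet caller was run. Members and gene lists were chosen with earlier results of these data known.

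Shares have exact (Clopper-Pearson) 95% intervals. UMIs summed over cells were scaled to CPM with exact Poisson intervals, and log2 ratios added 10 CPM. UMIs of 1 gene in 1 cell are not independent, so these intervals are too narrow. A value of 0 was replaced by a floor of 3 counts for fold bounds. With 1 library per group, genes between libraries were counted as higher or lower at a log2 ratio of 1 (at least 50 UMIs in the 2 libraries), without a test.

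Cell sets were compared by edgeR 4.0.16 quasi-likelihood tests on counts summed per library, with the library as a block because both sets came from the same tumours, Benjamini-Hochberg adjustment over all genes tested and a threshold of 0.05. The libraries differ in treatment, so the spread includes it. Comparisons of CD3- members used 3 libraries instead of the 4 planned, since the STING agonist library held none. Genes that define a cell set (the gate genes, the CD3 genes, Cd4, Ncr1 and Klrb1c) were left out of the counts of genes. On simulated counts at the depth of the helper comparison, 100% of genes raised and 78% of genes lowered by a log2 fold change of 2 were recovered. At the depth of the CD3- members against NK cells 42% and 36% were, and unchanged genes there had a median estimate of -0.71. The simulated counts varied by a small fixed amount beyond counting error and not by the spread of these libraries. Recovery in the data can therefore be lower.

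Named genes were, in each paired comparison, up to 8 per direction with the largest fold change that passed the test, had the same direction in every library and a mean of at least 50 CPM, without V(D)J segments and predicted genes; a few genes are not reported here. Between libraries they were the 5 largest ratios per direction, and list members could be named. Alternatives were other gates, denominators, thinning to 2000 UMIs, cells without genes of other lineages, a pseudocount of 50 CPM, DESeq2 1.42.0, no filter, no block, and each library left out. Leaving out cells with Trav3-1 and Trbv2, and single cells or libraries for Il5 and Il13, was added after seeing the data. Promoter windows came from a RefSeq table of GRCm38.p6 and coordinates from a GRCm38 annotation.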

Additional observations from a re-analysis of the deposited data

Results flagged for a closer look

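In 2 genes the 2 contrasts of an agonist pointed in opposite directions in the CD3+ members, with 1 library in each group, so the difference was not tested. The STING agonist went with a log2 ratio of Ikzf2 (Helios) of 2.32 (1.07 to 3.62) when given alone. When added to the LTβR agonist it went with one of -1.84 (-2.68 to -0.99), a difference of -4.15. Of the 40 Ikzf2 UMIs with the STING agonist, 95% were in 1 cell. The LTβR agonist went with a log2 ratio of Jun of -1.07 (-2.10 to -0.01) alone and of 2.48 (0.20 to 4.22) when added to the STING agonist, a difference of 3.56. Both Jun intervals, which cover counting error only, come close to spanning 0.

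Barcodes outside the quality limits, which the report does not use, held few gated cells, and most of them were in the combination. Among 536 such barcodes 9 met the gate (1.68%, 0.771 to 3.16), of which 6 exceeded 5000 genes, against 1 of 677 under the LTβR agonist, 0 of 207 under the STING agonist and 1 of 408 (0.245%) without treatment. The upper limits of these last 3 shares were 0.820%, 1.77% and 1.36%, so each interval overlapped that of the combination.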

How the results depend on the processing

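The order of the CD3+ shares, untreated lowest and combination highest, was kept under each of the 7 alternatives to the gate, limits and denominator, while the levels moved. Among Foxp3-negative cells with CD3 and Cd4 UMIs the combination was also highest, but the STING agonist (1.98%) lay below untreated (5.63%). In untreated, STING agonist, LTβR agonist and combination they were 0.0737%, 0.0800%, 0.322% and 0.994% with at least 2 UMIs of both genes (ratios of the combination of 13.5 to untreated and 12.4 to the STING agonist) and 0.647%, 0.705%, 1.81% and 3.17% of lymphocytes. With Il1rl1 alone the first 3 were 0.501%, 0.640% and 1.19%. Thinning gave 0.131% in untreated and 0.967% in the combination. Without cells of mixed lineage the LTβR agonist stood at 0.504% and the combination at 0.975%, and without the Foxp3 condition untreated, LTβR agonist and combination stood at 0.413%, 1.18% and 1.89%. CD3- shares with Il1rl1 alone were 0.221%, 0.213%, 0.434% and 0.319%, and the combination held 0.284% of lymphocytes.

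Counts of genes past a log2 ratio of 1 depended on the pseudocount. With 50 CPM, 4 were higher for STING agonist over untreated, 46 higher and 15 lower for LTβR agonist over untreated, 79 and 43 for combination over untreated, 139 and 72 for combination over STING agonist, and 12 and 39 for combination over LTβR agonist. Without each gene's top cell the counts were 3 and 15 for STING agonist over untreated, 9 lower for LTβR agonist over untreated, 328 and 28 for combination over untreated, 505 and 29 for combination over STING agonist, and 45 lower for combination over LTβR agonist. The mean of per-cell CPM gave 44 lower for LTβR agonist over untreated, and leaving out cells of mixed lineage gave 12 lower for STING agonist over untreated and 77 lower for combination over STING agonist. Penk turned from lower to higher (0.57) in the combination over the STING agonist without its top cells. Of 360 gene ratios 311 moved by less than their intervals, 48 by more, and 1 reversed. In the combination members with Trav3-1 and Trbv2 against the others, leaving out the 1 cell with most UMIs of both genes turned the log2 ratio of Il5 from 1.36 to -0.40 and that of Il13 from 0.93 to -0.88. With the top cell of each set left out they were 0.13 and -0.65.

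Both cell sets of a library share its tumours, so the block was part of the tests. With no replicate block the counts were 8 higher and 9 lower for CD3+ against CD3- members, 114 and 292 for CD3- members against NK cells, 103 and 101 against helper cells, and 180 and 165 against Foxp3+ cells. DESeq2 gave 15 and 10, 63 and 76, and, against helper cells, 53 and 36. With no filter on low counts 1 gene was lower in CD3+ than CD3- members, 151 were higher and 225 lower against helper cells, and 302 higher against Foxp3+ cells. Leaving out 1 library gave 25 to 91 higher and 12 to 96 lower against helper cells, 108 to 227 and 80 to 202 against Foxp3+ cells, 0 and 0 to 5 for CD3+ against CD3- members, and 2 to 38 and 0 to 58 against NK cells. The 0 against NK cells arose without the untreated and without the combination library. Without cells of mixed lineage the counts were 6 and 13 for CD3+ against CD3- members and 107 and 81 against Foxp3+ cells. Thinned, 2 genes were higher in CD3+ than CD3- members, 59 lower against helper cells, 92 and 87 differed from Foxp3+ cells, and 0 and 0 from NK cells. Of 388 results for named genes, 333 kept direction and call, 55 lost the call, and 0 reversed. Other causes of these moves were not tested. No paired analysis was possible because each treatment had 1 library where treatments were compared. The untreated and STING agonist values rest on 17 and 12 CD3+ cells.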

Other observations

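Genes whose protein products bear on the tissue around these cells were sparse in the CD3+ members. Il10 stood at 47 UMIs in 7 of 78 combination cells, 24 of them in 1 cell, and at 1, 0 and 1 UMI in untreated, STING agonist and LTβR agonist. Nmur1, the receptor for the neuropeptide neuromedin U, had 0, 0, 1 and 9 UMIs. Ifng, the Th1 cytokine, stood at 35 UMIs in 3 untreated cells, 1 with the STING agonist, 33 in 6 cells with the LTβR agonist and 7 in 3 cells of the combination. Ccr8, a chemokine receptor of Th2 and regulatory T cells, was at 168, 265, 151 and 276 CPM. V genes other than Trav3-1 and Trbv2 were also shared by a few members: Trav14-2 with Trbv13-2 by 2 cells of the LTβR agonist, and Trav13-1 with Trbv14 and with Trbv31 by 2 combination cells each.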
